A study of Danio rerio with 15 samples.

Results

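Complement is a cascade of plasma proteins, most of them secreted by liver cells, that tags microbes and damaged cells and opens pores in their membranes. Its classical, lectin and alternative routes meet at cleavage of C3, with C4 building one C3-cleaving enzyme and factor B the other, and cleavage of C5 then starts the assembly of C6, C7, C8 and C9 into the membrane attack complex. Fish carry several C3 copies, and in zebrafish many complement genes are known as acute phase genes, whose liver transcripts rise during inflammation. The 10 genes described here were chosen by symbol: the C3 copies c3a.1, c3a.2 and c3a.3, the C4 gene c4b, the factor B gene cfb, and the terminal pathway genes c5, c6, c8a, c8b and c9. That choice, and that of all lists below, was made with earlier results of these data known. Of the 10 symbols, 9 matched exactly among the 47048 entries of the authors' count table. The remaining gene, c4b, was found under the clone-based synonym si:dkey-8k3.2 that RefSeq lists for it, and is counted apart. All 10 passed the filter on low counts, as did the suffixed entries c6_1 and cfb_1, which are further entries under the same symbols.

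The RNA was that of entire zebrafish embryos, strain Tropical 5D Wildtype, at 48 hours post fertilization (hpf). From 8 hpf the dechorionated embryos had stood in medium with 47 uM of a short-chain fluorinated compound, or with 0 uM in the Control, and every group, Control included, carried 0.5% methanol. FBSA is perfluorobutane sulfonamide and PFBS is the sulfonic acid on the same chain, PFPeA is perfluoropentanoic acid, a carboxylic acid, and 42FTS is a fluorotelomer sulfonic acid with an ethyl spacer, so FBSA was compared with 3 acids at 1 matched dose and time. Each of the 5 groups had 3 libraries, each from 10 pooled embryos. Because the labels do not say that pools came from separate clutches, p-values here measure the spread between pools only. In whole embryos, fewer cells of a type and less RNA per cell cannot be told apart.

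Levels below are CPM, counts scaled to a common library total and for library composition, given as mean ± SD with n = 3 per group. Counts in genes ranged from 24249287 to 32686343 per library. Control 3 and 42FTS 2 had the lowest totals, and their unaligned reads made up 9.92% and 9.94%, where the remaining libraries had 6.32% to 6.73%. Over all genes 2274 were called for FBSA against the Control, and 1020 when FBSA 2 was left out. A pair of PFBS columns carried the same header name and are called PFBS a and PFBS b, beside PFBS 2. Changes are log2 fold changes with a standard error (SE), and a gene is called when its p from edgeR's quasi-likelihood test, adjusted over the 23874 entries tested, is under 0.05.

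With FBSA, the transcripts of the central component C3 from the copy c3a.1 and of the pore-forming component c9 rose. Of the 9 exactly matched genes, these 2 were called higher than the Control, where 5.28% of all genes tested were called higher and 4.25% lower. By edgeR, 0 of the 9 were called lower, and 4 of the 9 had an unadjusted p under 0.05 in either direction, as did 23.7% of all genes. DESeq2 called 3 higher, cfb beside c3a.1 and c9, and 1, c5, lower, where its calls took in 12.9% of all genes in either direction and those of edgeR 9.53%. The c4b entry, outside this count, was also called higher. The median log2 change of the 9 genes was 0.03, against 0.01 over all genes tested, and 6 of the 9 changes were above 0. In 3 of the 9 (c3a.1, c9 and cfb) every FBSA library lay above every Control library, which held for 14.5% of all genes, and in 1 (c5) every FBSA library lay below, which held for 13.5%.

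**Figure D1:**
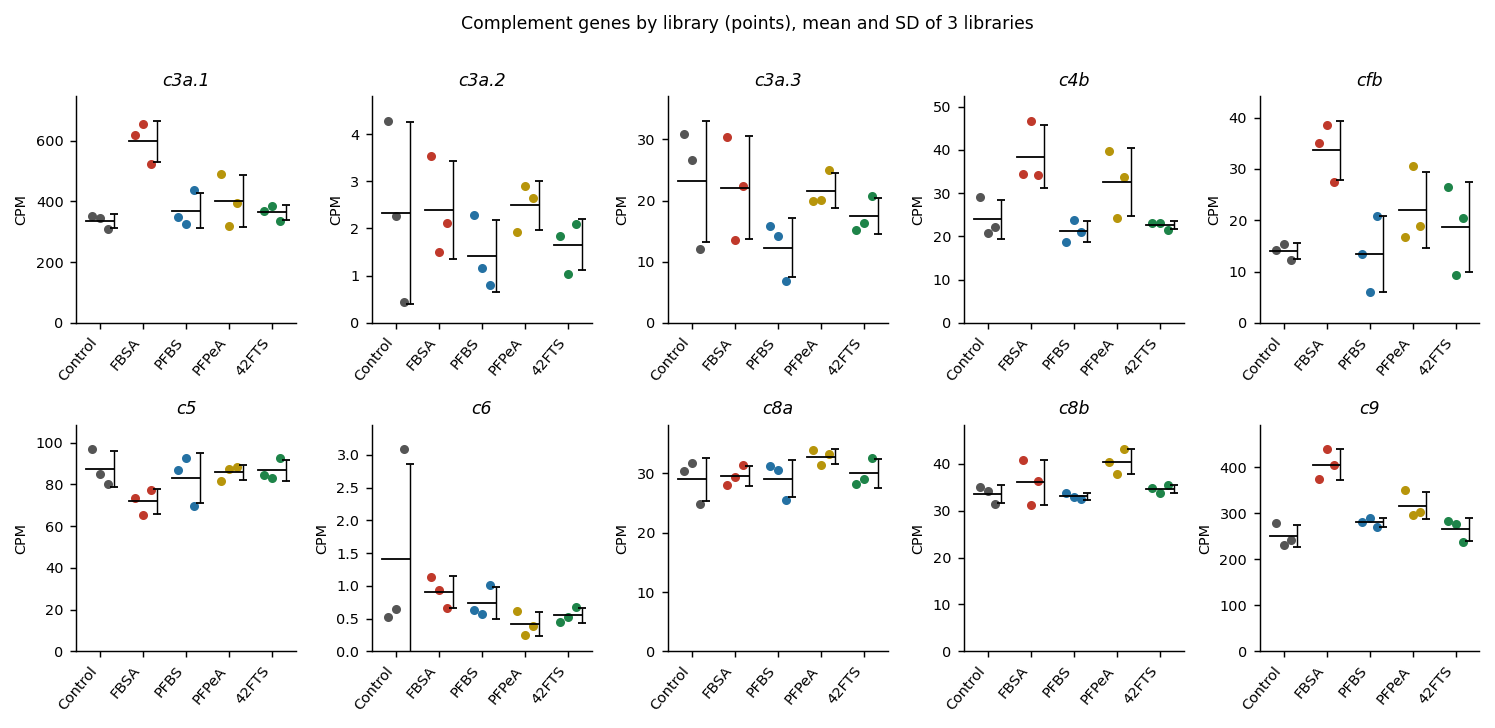
CPM of the 10 complement genes (c4b under its synonym entry) in each of the 5 groups; points are libraries, the horizontal line is the mean of 3 libraries and the bar its SD, cut at 0 for c6 in the Control. In c3a.1 and c9 the 3 FBSA libraries stand above all other libraries, while c8a and c8b are alike in FBSA and Control.

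The gene c3a.1 encodes C3, the protein on which all activation routes converge. Its levels were 351, 345 and 309 CPM in Control 1, 2 and 3, and 618, 654 and 523 CPM in FBSA 1, 2 and 3. The acids gave 326, 347 and 436 CPM in PFBS a, PFBS 2 and PFBS b, 490, 318 and 395 CPM in PFPeA 1, 2 and 3, and 370, 384 and 337 CPM in 42FTS 1, 2 and 3. The lowest FBSA library thus lay above the highest library of any other group, PFPeA 1, and the acids overlapped each other. Mean levels were 598 ± 67.8 CPM in FBSA and 335 ± 22.8 CPM in the Control, a 1.79-fold difference with a log2 change of 0.84 (SE 0.15, edgeR adjusted p = 0.00509). In order, the group means were FBSA, PFPeA (401 ± 86.1), PFBS (370 ± 58.4), 42FTS (364 ± 24.4) and Control, and no neighbours in that order below FBSA differed beyond their spread.

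The 2 other C3 copies in the set, c3a.2 and c3a.3, lie beside each other in RefSeq's GRCz12tu assembly, which is not the build of the files, and did not show that difference. Their levels were low: c3a.2 was at 2.38 ± 1.04 CPM in FBSA and 2.33 ± 1.92 CPM in the Control, and c3a.3 at 22.1 ± 8.40 and 23.2 ± 9.88 CPM. Libraries within a group scattered widely, c3a.2 from 0.442 CPM in Control 3 to 4.28 CPM in Control 1, and c3a.3 from 12.0 to 30.8 CPM in the same pair. The log2 changes with FBSA were 0.02 for c3a.2 (95% confidence interval -1.26 to 1.30) and -0.07 for c3a.3 (-0.93 to 0.79). The c3a.1 estimate of 0.84 lies inside the first interval and just outside the second. The interval of c3a.1, 0.51 to 1.16, overlaps both, and whether the changes of the copies differ was not tested. Near-identical copies can share reads. The count table sets apart reads that did not align uniquely, 14.3% to 15.7% of all counted reads per library, in a line that names no gene. How many of these came from the C3 copies is not known, so the split between the copies is uncertain. Leaving out single libraries turned the sign of both: c3a.2 was at -0.46 without Control 3, -0.37 without FBSA 1 and -0.0048 without Control 2, and c3a.3 was at 0.19, 0.044 and 0.18 when Control 1, Control 2 or FBSA 2 was dropped.

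The C4 gene c4b encodes the component that the classical and lectin routes cleave first, and it forms their C3-cleaving enzyme with C2. Its entry stood at 29.1, 20.7 and 22.1 CPM in Control 1, 2 and 3 and at 34.4, 46.8 and 34.1 CPM in FBSA 1, 2 and 3. PFPeA 1, 2 and 3 had 39.8, 24.3 and 33.7 CPM, while PFBS ranged from 18.8 to 23.7 CPM and 42FTS from 21.6 to 23.2 CPM. Every FBSA library lay above every Control, PFBS and 42FTS library, and PFPeA overlapped both FBSA and the Control. The rise with FBSA was 1.60-fold, from 24.0 ± 4.49 to 38.4 ± 7.24 CPM (log2 0.68, SE 0.18, edgeR adjusted p = 0.0311). This call was lost in 7 of 13 alternative settings. Leaving out 1 library ended it for Control 2 (log2 0.59, edgeR adjusted p = 0.115), Control 3 (0.62, 0.105) and FBSA 2 (0.51, 0.138), and so did fitting the 2 groups alone (0.68, 0.0748).

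Factor B, encoded by cfb, is the protease that binds C3b and forms the alternative C3-cleaving enzyme. In the count table cfb stood at 14.2, 15.4 and 12.3 CPM in Control 1, 2 and 3 and at 35.1, 38.6 and 27.4 CPM in FBSA 1, 2 and 3. The acids scattered over a wide range, 6.07 to 20.9 CPM in PFBS, 16.7 to 30.5 CPM in PFPeA and 9.27 to 26.4 CPM in 42FTS. FBSA and the Control did not overlap, but PFPeA 2 (30.5 CPM) lay above FBSA 3. The difference was 2.41-fold in the mean, the largest of the 10 genes (log2 1.27, SE 0.45), and was not called (edgeR adjusted p = 0.106). It was called by DESeq2 (1.26, adjusted p = 0.0433) and by edgeR in a fit of only the 2 groups (1.27, adjusted p = 0.00465), and with cfb_1 added to it the log2 change was 0.66 (adjusted p = 0.313). The suffixed entry cfb_1 itself ran from 0.274 to 14.6 CPM in the Control and from 0.312 to 1.47 CPM in FBSA.

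Of the terminal pathway genes described here, c9 alone was called. C9 forms the wall of the pore, and c9 was at 279, 231 and 243 CPM in Control 1, 2 and 3 and at 374, 440 and 405 CPM in FBSA 1, 2 and 3. PFBS a, PFBS 2 and PFBS b had 291, 281 and 271 CPM, PFPeA 1, 2 and 3 had 351, 298 and 302 CPM, and 42FTS 1, 2 and 3 had 282, 276 and 237 CPM. All FBSA libraries lay above all other libraries, and PFPeA came next, above all Controls. The mean rose 1.62-fold from 251 ± 24.6 to 406 ± 33.1 CPM (log2 0.69, SE 0.09, edgeR adjusted p = 0.000274). Group means fell in the order FBSA, PFPeA (317 ± 29.8), PFBS (281 ± 9.98), 42FTS (265 ± 24.3) and Control, and below FBSA no pair of groups was called different.

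C5 is cleaved to start pore assembly and to release an attractant of leukocytes, and its gene pointed the other way. Its levels were 73.3, 65.3 and 77.1 CPM in FBSA 1, 2 and 3 against 96.9, 84.8 and 79.9 CPM in Control 1, 2 and 3. These groups did not overlap, though FBSA 3 and Control 3 were close, and PFBS b (69.4 CPM) fell inside the FBSA range. The log2 change of -0.28 (SE 0.10) was not called by edgeR (adjusted p = 0.0928) and was called by DESeq2 (-0.29, adjusted p = 0.0477).

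The genes c8a and c8b encode the alpha and beta chains of C8, which inserts into the membrane before C9, and they neighbour each other in GRCz12tu. Both were level between FBSA and Control, c8a at 29.6 ± 1.64 and 29.0 ± 3.68 CPM and c8b at 36.1 ± 4.80 and 33.5 ± 1.92 CPM. Their log2 changes were 0.03 (95% confidence interval -0.18 to 0.24) and 0.10 (-0.08 to 0.29), intervals that do not hold a change of the size of c9. The sign of the c8a value turned without Control 3 (-0.072) or FBSA 3 (-0.013). C6 joins C5b first, and the entry c6 was scarce, with 1.14, 0.939 and 0.655 CPM in FBSA 1, 2 and 3 and 0.520, 0.640 and 3.09 CPM in Control 1, 2 and 3. Its log2 change of -0.61 (SE 0.57, edgeR adjusted p = 0.570) rested on Control 3, without which it was 0.65. The suffixed entry c6_1 was higher than c6, at 4.43 ± 1.27 CPM in FBSA and 3.28 ± 1.19 CPM in the Control, and adding it to c6 gave a log2 change of 0.19.

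**Figure D2:**
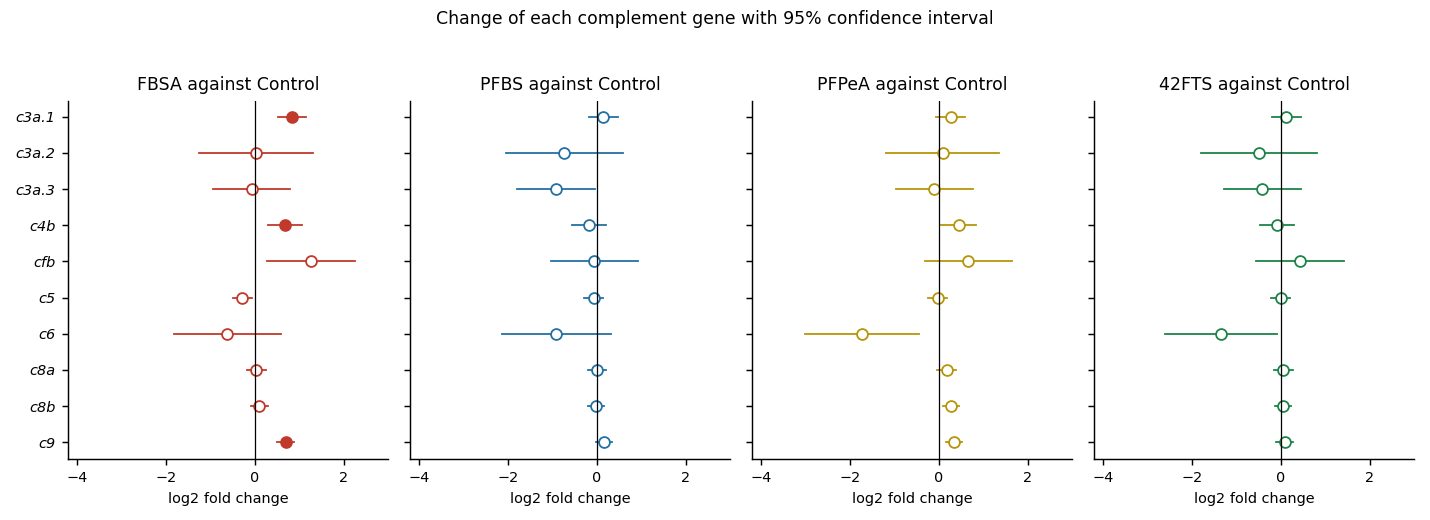
Log2 fold change of each of the 10 genes for each compound against the Control, with 95% confidence intervals; filled points have an edgeR adjusted p under 0.05. Filled points appear only for FBSA, at c3a.1 (0.84), c4b (0.68) and c9 (0.69); all 4 comparisons share the same 3 Control libraries.

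Against each acid in turn, FBSA again had more c3a.1 and c9 transcript. The 4 groups of treated embryos and the Control make 10 pairs, and FBSA is in 4 of them, so the comparisons share the FBSA libraries; p-values were adjusted over genes within each pair, not over the pairs. In FBSA against PFBS, the pair that differs in a sulfonamide for a sulfonic acid on one chain, 2 of 9 genes were called higher, where 5.17% of all genes were. The log2 differences were 0.69 for c3a.1 (SE 0.15, edgeR adjusted p = 0.0119) and 0.53 for c9 (SE 0.09, 0.00183), and the c4b entry differed by 0.86 (SE 0.18, 0.00943). The cfb difference of 1.32 was not called (edgeR adjusted p = 0.0885) but was by DESeq2 (1.32, 0.0293) and without PFBS b (1.79, 0.0497). The c3a.1 call was lost without FBSA 2 (0.63, 0.0653), PFBS 2 (0.65, 0.0539) or PFBS a (0.61, 0.0552), and without PFBS b 1 of the 9 was called lower, c5 (-0.32, 0.0414).

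In FBSA against 42FTS, which differs in head group and in the spacer, 2 of 9 were called higher against 5.69% of all genes. The log2 differences were 0.72 for c3a.1 (SE 0.15, edgeR adjusted p = 0.0112), 0.61 for c9 (SE 0.09, 0.000680) and 0.77 for c4b (SE 0.18, 0.0180). The c9 call held in 13 of 13 alternative settings. That of c3a.1 was lost without FBSA 2 (0.64, 0.0637) or 42FTS 3 (0.67, 0.0505), and that of c4b without FBSA 2 (0.59, 0.0875), 42FTS 1 (0.78, 0.0551), 42FTS 2 (0.78, 0.0518) or 42FTS 3 (0.73, 0.0692).

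In c3a.1, c3a.2, c3a.3, c9, c4b and cfb the difference from FBSA was smaller in size for PFPeA than for the other acids. In c6, c8a and c8b it was larger in size (-0.15 for c8a and -0.17 for c8b), and in c5 it lay between those of the other acids. For FBSA against PFPeA again 2 of 9 were called higher, against 4.08% of all genes, c3a.1 by 0.58 (SE 0.15, edgeR adjusted p = 0.0335) and c9 by 0.36 (SE 0.09, 0.0203). For c4b the groups overlapped and the difference was 0.24 (95% confidence interval -0.15 to 0.62, adjusted p = 0.475), and for cfb it was 0.61 (-0.35 to 1.58, 0.456). Neither interval shows that the compounds acted alike on these genes. Both calls were lost in some fits without 1 library. That of c3a.1 was lost without FBSA 1 (0.56, 0.0812), FBSA 2 (0.51, 0.145), PFPeA 2 (0.44, 0.100) or PFPeA 3 (0.57, 0.111). That of c9 was lost without FBSA 2 (0.30, 0.0966), PFPeA 2 (0.32, 0.0849) or PFPeA 3 (0.33, 0.0834). Calls in either direction over all genes fell too, from 8.26% with all libraries. They were 7.69% without FBSA 1, 3.23% without FBSA 2, 3.82% without PFPeA 2 and 3.72% without PFPeA 3. In a fit of only the 2 groups, 0 of 9 were called, where 1.94% of all genes were called in either direction. There c3a.1 was at 0.58 (0.132) and c9 at 0.36 (0.0671).

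No complement gene was called between the acids and the Control or between any 2 acids. In each of PFBS, PFPeA and 42FTS against the Control, and in each of the 3 pairs of acids, edgeR called 0 of 9 and 0% of all genes in either direction. Unadjusted p-values were under 0.05 for 1, 3 and 1 of the 9 genes in PFBS, PFPeA and 42FTS against the Control, and for 925, 1243 and 972 of all genes tested. These were c3a.3 with PFBS (log2 -0.92), c9 (0.34), c8b (0.27) and c6 (-1.73) with PFPeA, and c6 with 42FTS (-1.35). Between acids unadjusted p-values were under 0.05 for 1 gene of the 9 in PFBS against PFPeA, 0 in PFBS against 42FTS and 2 in PFPeA against 42FTS, and for 1154, 1047 and 1629 of all genes. DESeq2 also called 0 of the 9 in each of these comparisons, and 6, 12 and 8 of all genes for PFBS, PFPeA and 42FTS against the Control and 14, 10 and 24 for the 3 pairs of acids in the same order.

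For the genes called higher with FBSA, the acids' intervals against the Control give bounds. The log2 change of c3a.1 was 0.14 with PFBS (95% confidence interval -0.18 to 0.47), 0.26 with PFPeA (-0.06 to 0.58) and 0.12 with 42FTS (-0.20 to 0.44). That of c9 was 0.16 (-0.02 to 0.35), 0.34 (0.15 to 0.52) and 0.08 (-0.11 to 0.27). Each of these 6 intervals lies below the FBSA estimate of the same gene. For the c4b entry this held for PFBS (-0.18, -0.57 to 0.21) and 42FTS (-0.087, -0.48 to 0.30), but the PFPeA interval (0.44, 0.054 to 0.83) holds the FBSA estimate of 0.68.

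With PFPeA several genes stood above the Control without a call. In 3 of the 9 genes, c9, c8b and cfb, all PFPeA libraries lay above all Controls, against 5.8% of all genes, with log2 changes of 0.34, 0.27 and 0.65 that did not pass the test (edgeR adjusted p = 0.955, 0.955 and 0.977). The c8b levels were 40.4, 37.9 and 43.1 CPM in PFPeA 1, 2 and 3 and 31.4 to 35.1 CPM in the Control. PFPeA 1 was the highest library of its group in c3a.1, c4b and c9. Without it the PFPeA changes against the Control were 0.26 for c9, 0.27 for c8b, 0.82 for cfb and 0.27 for c4b, the last down from 0.44, and the FBSA to PFPeA differences were 0.74 for c3a.1 and 0.44 for c9, both called (edgeR adjusted p = 0.00830 and 0.0105).

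A second quantification of the same libraries was deposited. The authors' deposited table gives TPM, transcript levels scaled to a common total and for transcript length, and estimated counts for 1909 genes, and its largest FBSA Q (their adjusted p) is 0.05, so it holds genes chosen for their FBSA result and its FBSA values are a description only. It lists 6 of the 10 genes, c3a.1, c4b, c5, c6, c9 and cfb, and not c3a.2, c3a.3, c8a or c8b. Per length, the mean Control level was highest for c9 (160 ± 15.7 TPM), followed by c3a.1 (92.7 ± 5.47), cfb (39.1 ± 4.19), c5 (22.6 ± 2.12), c6 (9.80 ± 0.775) and c4b (5.99 ± 1.11).

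In FBSA the TPM means were 247 ± 23.2 for c9, 157 ± 17.3 for c3a.1, 54.7 ± 10.6 for cfb, 17.8 ± 1.42 for c5, 14.9 ± 4.02 for c6 and 9.12 ± 1.80 for c4b. The authors' deposited table gives log2 changes of 0.81 for c3a.1 (Q = 7.69e-20), 0.68 for c9 (3.72e-13) and 0.66 for c4b (0.000487), each within 0.03 of the value from the count table. It puts c5 at -0.29 (Q = 0.0376). For PFPeA the authors' deposited table has 1 of the 6 genes under 0.05, c9 at 0.33 (Q = 0.0449). For PFBS and 42FTS it has none of the 6. The share of all listed genes under 0.05 for the acids was not counted, so these numbers are no result about the 6 genes. The authors' deposited enrichment table for FBSA lists complement activation with 5 of 16 genes (p = 0.00769, Q = 0.138).

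**Figure D3:**
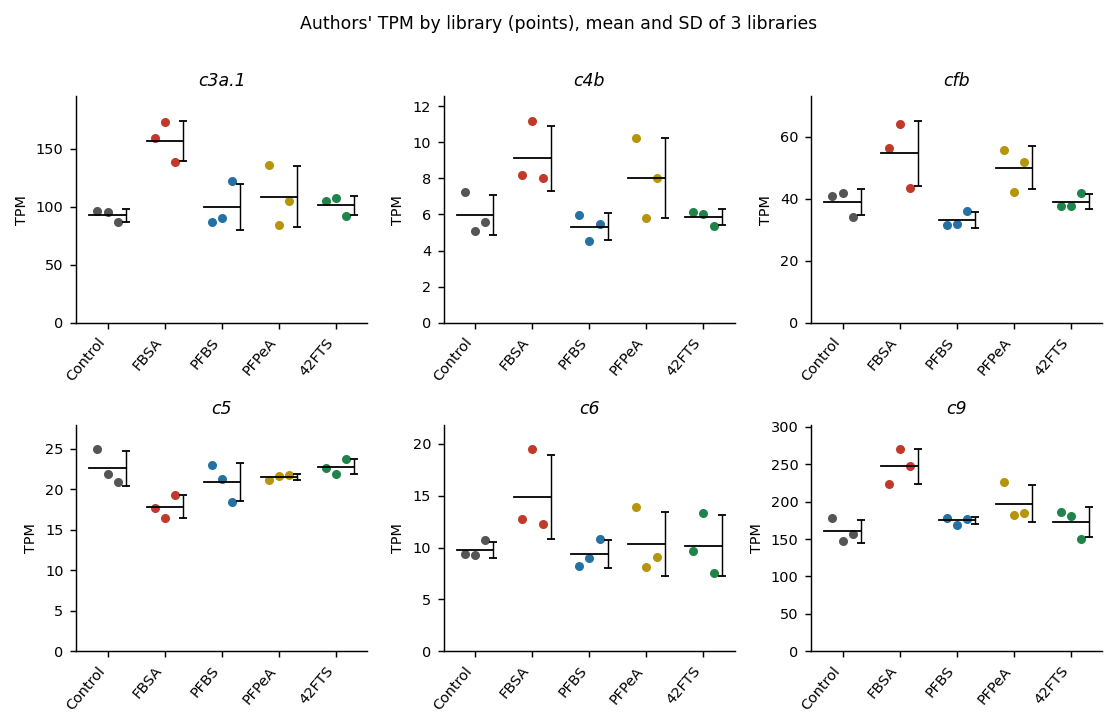
TPM from the authors' deposited table for the 6 complement genes it lists, by group; points are libraries, lines means of 3 libraries and bars the SD. The FBSA libraries of c3a.1 and c9 (138 to 173 and 224 to 270 TPM) lie above the Controls, and cfb and c6 also stand higher in FBSA than in the Control.

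For cfb and c6 the quantifications differed. The authors' deposited table puts cfb at 0.54 (Q = 0.000506), where the count table gave 1.27, and c6 at 0.66 (Q = 0.00103), where the count table gave -0.61. Per library, cfb was at 41.0, 42.0 and 34.3 TPM in Control 1, 2 and 3 and at 56.4, 64.2 and 43.3 TPM in FBSA 1, 2 and 3, so FBSA 3 stood just above the Controls. For c6 the values were 9.39, 9.31 and 10.7 TPM in the Control and 12.8, 19.5 and 12.3 TPM in FBSA, and PFPeA 1 (13.9 TPM) and 42FTS 2 (13.3 TPM) lay inside the FBSA range. Control 3, which had the highest c6 count of all libraries, did not stand apart in TPM.

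The ratio of the deposited count to the authors' estimated count shows where the difference lies. Over the 13 libraries that both tables name alike and 1771 genes with at least 20 estimated counts in each, the median ratio was 1.99. It was 1.94 for c3a.1, 1.98 for c4b, 1.97 for c5 and 2.02 for c9, and over these 4 genes and all 13 libraries it ran from 1.85 to 2.04. For cfb it was 0.535 and ran from 0.274 in 42FTS 2 to 0.821 in 42FTS 1, and for c6 it was 0.0611 and ran from 0.0270 in PFPeA 2 to 0.255 in Control 3. Of the 1771 genes, 17.2% had a lower ratio than cfb and 6.10% a lower one than c6, so low ratios were not particular to them. The cfb ratio was 0.661, 0.656 and 0.686 in FBSA 1, 2 and 3 and 0.390, 0.413 and 0.393 in Control 1, 2 and 3, so the count entry held a larger part of the estimated counts in FBSA. PFPeA 2, the highest acid library for cfb by count, had a ratio of 0.782, against 0.340 and 0.392 in PFPeA 1 and 3, and was the lowest PFPeA library by TPM (42.3, against 55.7 and 52.0). Adding the suffixed entries raised the overall ratios to 0.596 for cfb and 0.300 for c6, still below those of the other 4 genes. The count-table values of cfb and c6 are uncertain for that reason, and the part of the missing reads in their changes was not tested.

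**Figure D4:**
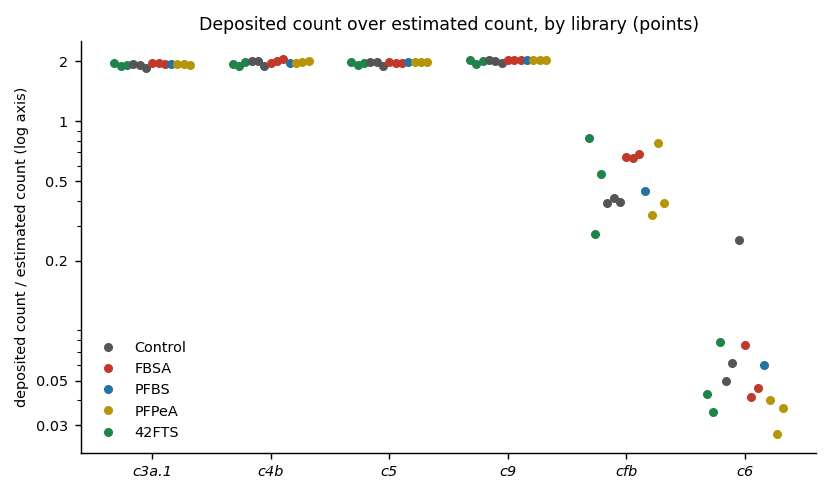
Ratio of deposited count to the authors' estimated count (log axis) for the 6 genes in both tables; each point is 1 of 13 libraries, coloured by group. The ratio lies near 2 in every library for the other 4 genes, while cfb spreads between 0.274 and 0.821 and c6 between 0.0270 and 0.255.

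Among the other complement genes, 2 regulators were called higher with FBSA. The lists held 50 further symbols, of which 41 matched an entry and 30 were tested, and 2 were called higher and 0 lower by edgeR. That share is near the 5.28% of all genes called higher, so it is no result about the lists, and whether lists differ from each other was not tested. Both are regulators of the 12 tested: cfi, factor I, which cuts C3b and C4b, rose from 84.4 ± 1.77 to 144 ± 12.1 CPM (log2 0.77, SE 0.10, edgeR adjusted p = 0.000524), and cpn1, the carboxypeptidase that trims the released peptides of C3 and C5, rose from 81.5 ± 3.51 to 117 ± 18.1 CPM (0.52, SE 0.08, 0.00138). Both calls held in 13 of 13 alternative settings, and 4 regulators were called by DESeq2. By library, cfi was at 82.5, 84.5 and 86.1 CPM in Control 1, 2 and 3 and at 145, 155 and 131 CPM in FBSA 1, 2 and 3, with the 9 acid libraries between 74.5 and 107 CPM. The summed level of the regulator list was 544 to 583 CPM in FBSA, 402 to 426 CPM in the Control and 381 to 487 CPM over the acids.

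The 4 other C3 copies tested were not called, with c3a.6 at 57.0 ± 12.0 CPM in FBSA and 39.0 ± 0.0769 CPM in the Control (log2 0.55, SE 0.21, edgeR adjusted p = 0.131, called by DESeq2 at 0.0403) and c3b.1 at 0.63 (SE 0.32, 0.271). The summed level of these copies was 66.8 to 94.1 CPM in FBSA and 52.0 to 56.5 CPM in the Control, and PFPeA 1 reached 86.4 CPM. Of the classical and lectin list 0 of 8 tested were called. Its most abundant members were c4, a second C4 gene, at -0.16 (SE 0.07), and the lectin-route protease gene masp1, at 0.23 (SE 0.13), while c1qa, c1qb and c1qc, of the classical recognition protein C1q, averaged at most 0.0204 CPM in FBSA and Control and were not tested. In the alternative route 0 of 2 were called, with properdin (cfp), which stabilises the C3-cleaving enzyme, at -0.07 (SE 0.23) and the factor B-like gene cfbl at 1.41 (SE 0.87, adjusted p = 0.360), the latter under 1 CPM. The sign of the cfp value turned without Control 2 (0.066) or FBSA 1 (0.056).

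By edgeR 0 of 3 further terminal genes were called, and DESeq2 called 1 lower. The latter was c7b, a C7 gene with 20, 38 and 57 reads in Control 1, 2 and 3 and 1, 8 and 0 in FBSA 1, 2 and 3, groups that did not overlap (1.35 ± 0.855 and 0.0941 ± 0.136 CPM, edgeR adjusted p = 0.128). The C7 gene c7a was at 0.40 (SE 0.15) and c8g, the gamma chain of C8, at -0.0018 (SE 0.16) with its sign turning without Control 1 (0.14), Control 2 (0.036) or FBSA 1 (0.041). Complement receptor genes were scarce, itgb2 being the 1 receptor gene tested (log2 -0.20, SE 0.18) and the C3a and C5a receptor genes c3ar1 and c5ar1 at 0.241 and 0.146 CPM in FBSA. For all 30 the median log2 change was 0.29 with FBSA, 0.12 with PFPeA, 0.06 with 42FTS and -0.02 with PFBS, against 0.01, 0.01, -0.01 and 0.00 over all genes, and these comparisons share the Control libraries.

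**Figure D5:**
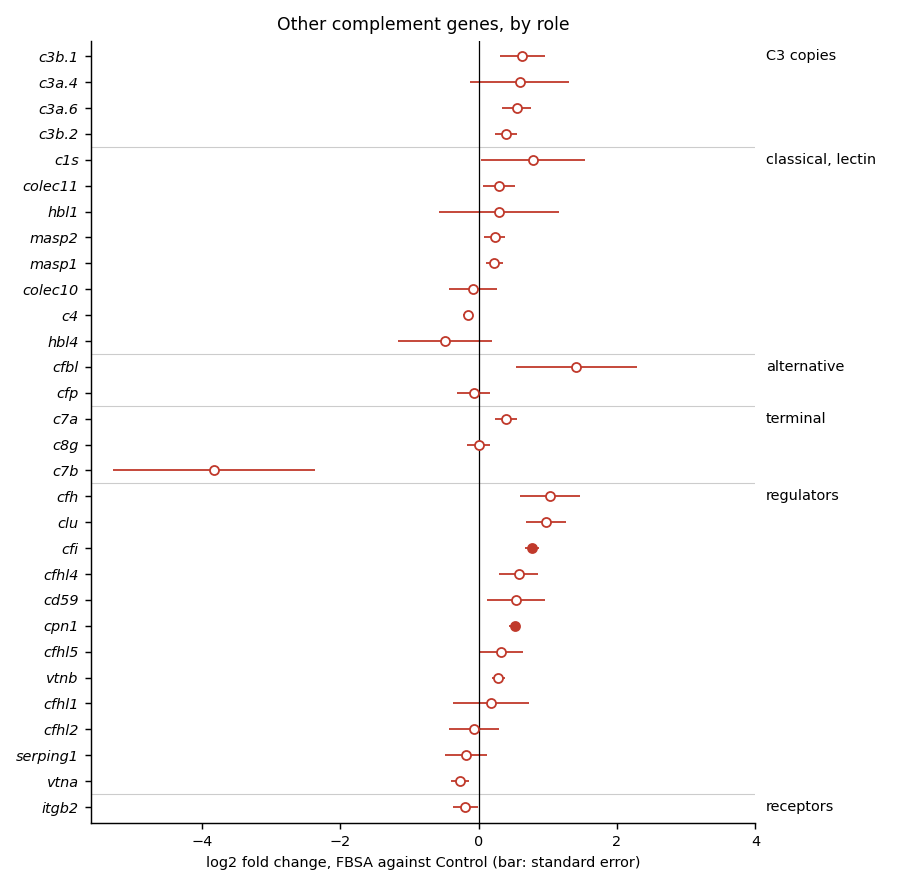
Log2 fold change in FBSA against the Control for the 30 complement genes tested outside the 10, grouped by role; bars are standard errors and filled points have an edgeR adjusted p under 0.05. The 2 filled points are the regulators cfi (0.77) and cpn1 (0.52), and the copies of C3 lie at 0.40 to 0.63.

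Acute phase genes and cell markers, given next, are read against the same 5.28% of all genes called higher and 4.25% lower by edgeR. Their lists, too, were chosen with earlier results of these data known, so the counts do not test the lists. Of 11 plasma proteins tested only the fibrinogen chain gene fgb was called higher (log2 0.33, SE 0.08, edgeR adjusted p = 0.0147), and 0 were lower. It lost the call without Control 2 (0.0583), Control 3 (0.0703), FBSA 1 (0.0532) or FBSA 2 (0.0542). Of 21 genes of acute phase signalling and transcription 8 were called higher and 0 lower. The largest were the cytokines il1b (3.54, SE 1.02) and il11a (2.89, SE 0.82), the feedback inhibitors socs3a (1.23, SE 0.34) and socs3b (0.80, SE 0.23), and the C/EBP transcription factors cebpb (1.03, SE 0.27) and cebpd (edgeR adjusted p = 0.00229). Levels of cebpd were 41.2, 44.1 and 40.4 CPM in Control 1, 2 and 3 and 76.3, 103 and 89.9 CPM in FBSA 1, 2 and 3, without overlap, and its call held in all 13 alternative settings. The cytokines were near the detection limit, il1b at 1.55 ± 0.752 CPM in FBSA and 0.135 ± 0.0376 CPM in the Control, and PFPeA 1 had more il1b (3.43 CPM) than any FBSA library. The number called depended on the setting: 4 were called higher without the filter on low counts, 3 higher and 1 lower with the library number as a block, and 9 higher and 1 lower by DESeq2. With single libraries left out, 2 passed when Control 1, Control 2 or FBSA 2 was left out, 3 without Control 3, and 5 without FBSA 1.

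Markers of the cells that could carry these transcripts were read beside them. Among 12 liver markers tested, fetub (log2 0.69, SE 0.16) and serpina1 (0.59, SE 0.16), which encode plasma proteins, were called higher and rbp4 (-0.42, SE 0.12), the retinol carrier, lower, and 0 were called without any 1 of the Control libraries or without FBSA 3. The defining liver gene fabp10a was at 0.533 ± 0.336 CPM in FBSA and 1.14 ± 0.156 CPM in the Control (not called), and ahsg2 was at 0 in the Control. Summed liver markers were 4803 to 5726 CPM in FBSA and 4525 to 4629 CPM in the Control, and those of yolk syncytial layer and gut, led by apobb.1 (0.18) and apoa1b (0.29), 10775 to 11285 and 9260 to 9896 CPM. In both lists all FBSA sums lay above all Control sums. How often this holds for sums of other gene sets was not counted, so it is no result about the markers. The median log2 change of the 12 liver markers tested was 0.12, against 0.01 over all genes. The liver sums of PFPeA (4718 to 5312 CPM) also lay above all Control sums. Those of PFBS (3956 to 5060 CPM) and 42FTS (4608 to 5265 CPM) overlapped the Control and FBSA. For yolk and gut, the acid sums of 7517 to 10344 CPM lay below all FBSA sums. The yolk and gut sums are set by apobb.1 and apoa1b. The median log2 change of the 7 tested was -0.11, and the gut genes vil1 (-0.78, SE 0.26) and cdx1b (-0.62, SE 0.27) pointed down. By edgeR 0 of the 7 were called, by DESeq2 1 was called lower, and apoa1b was called higher in the fit of the 2 groups alone (edgeR adjusted p = 0.0295) and with the block (0.0125).

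Leukocyte and skin markers were also checked. Of 6 macrophage markers only marco, a scavenger receptor, was called higher (log2 0.94, SE 0.28, lost when Control 2, Control 3 or FBSA 2 was left out), ccl34b.1 was at 0 in FBSA and Control, and the sums overlapped at 12.2 to 21.0 and 7.47 to 14.6 CPM. Of 5 neutrophil markers nccrp1 (1.69, SE 0.48) and mmp13a (1.20, SE 0.26) were called higher, 0 without FBSA 2 and 1 without any Control or without FBSA 1, and the sums of 55.9 to 70.4 and 43.9 to 69.6 CPM overlapped. Of 7 epidermis markers anxa1b (1.46, SE 0.11) and cldne (0.98, SE 0.12) were higher and anxa1c lower (-0.34, SE 0.06), and the sums of 6427 to 9114 and 6026 to 11047 CPM overlapped. The part of any of these cell types in the changes of c3a.1 and c9 was not tested.

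Genes were ranked by likeness to the mean profile of the 9 genes (mean centred log2 CPM) over the 15 libraries. Entries with a suffix or with clone-based or provisional names were left out of the ranking, and some of them may be nearer. The 5 nearest of the genes ranked were tac1, a tachykinin precursor (Pearson r = 0.911), tomm7, of the mitochondrial import pore (0.870), peo1 (0.844), eml4, a microtubule binder (0.843), and vmo1b (0.842). They share libraries and depth with the 9 genes, and only vmo1b was called with FBSA (log2 0.51, SE 0.12, edgeR adjusted p = 0.0146). The profile itself mixes genes that rose with genes that did not, and it was 0.47, 0.17 and 0.21 in FBSA 1, 2 and 3, against 0.14, 0.00 and -0.24 in Control 1, 2 and 3.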

How the data were processed

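The authors' deposited count table holds whole-number read counts per gene entry, not normalized, for 15 libraries of 10 pooled embryos. The submitters' processing notes name the build GRCz11 and the tools DESeq2, RSEM, Bowtie2, HTSeq and HISAT2, without roles. No source used here says whether strand was used in counting, so a gene and its antisense or overlapping partner may not be told apart. Per the file headers, the authors' other table gives estimated counts, TPM, log2 fold changes, p-values and q-values, and their enrichment table gives gene numbers with p-values and q-values for each term. In the former, 30 columns of other values were not used. Lines of the count table that name no gene, 33.4% to 36.3% of all counted reads per library, stayed out of library sizes and tests.

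Counts were fitted in R 4.3.3 with edgeR 4.0.16 (filterByExpr, TMM scaling, robust quasi-likelihood fit of all 15 libraries by group, F-test) and Benjamini-Hochberg adjustment over the 23874 entries tested of 47048, of which 16469 carry a suffix. The fit was tested on simulated data. DESeq2 1.42.0, other scalings and filters, the suffixed copies merged, the library number as a block and each library left out were alternatives. Counts in genes were at least 24249287 per library before the filter, and CPM were scaled by the totals after it and the TMM factors. The 3 libraries per group limit the precision.

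The 10 genes and all lists were chosen with earlier results of these data known. Named were all 10 genes, and from each other list up to 6 called for FBSA by size of change or else the 2 most abundant. Also named were the 5 genes most like the set with a mean of at least 1 CPM. Suffixed entries and those with clone-based or provisional names were left out there. Symbols were matched to RefSeq's table for c4b, cfbl and other synonyms. No sequence is shown because none was used here.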

Additional observations from a re-analysis of the deposited data

How the results depend on the processing

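The 2 genes called higher for FBSA against the Control, c3a.1 and c9, were called in 13 of 13 alternatives, with log2 changes of 0.77 to 0.93 and 0.63 to 0.78. DESeq2 called 1 gene, c5, lower for FBSA against the Control and 1, again c5, for FBSA against 42FTS, where edgeR called 0. Its calls in either direction took in 12.9% and 13.4% of all genes in these comparisons. For FBSA against PFPeA 1 gene was called higher without the filter on low counts and 0 in a fit of only the 2 groups. Without Control 3 and 42FTS 2 together 1 was called, where the fit of all 15 libraries with the filter called 2. In that order, these settings called 4.87%, 1.94% and 6.68% of all genes in either direction. With the filter and all 15 libraries fitted together the share was 8.26%. With single libraries left out, the genes called higher ranged from 1 to 3 for FBSA against PFBS, 0 to 2 against PFPeA and 1 to 2 against 42FTS. The 3 were c3a.1, c9 and cfb, without PFBS b. Those called lower ranged from 0 to 1 against PFBS, and the cause was not tested. Over all genes, the share called in either direction also varied between the fits without 1 library. It was 4.76% to 9.19% against PFBS, 3.23% to 7.69% against PFPeA and 4.1% to 8.87% against 42FTS.

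With the library number as a replicate block, 0 genes were called higher for FBSA against PFBS, a setting that leaves 1 numbered PFBS library, assumed to vary like the others. As deviations from their group means, same-numbered libraries of different groups correlated at a mean of 0.0130 (22 pairs, -0.0639 to 0.0857). Differently numbered ones correlated at a mean of -0.00645 (44 pairs, -0.119 to 0.128). With 3 libraries per group, these values cannot show whether the numbers mark a shared clutch or day. The block gave 1977 calls over all genes for FBSA against the Control, where the fit without it gave 2274.

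Signs of uncalled changes turned as follows. Without Control 3 and 42FTS 2 together c3a.2 was -0.45, c6 0.66 and c8a -0.067. With copies merged c6 was 0.19, and under the replicate block c8g was 0.017. With single libraries left out the ranges were -0.46 to 0.79 for c3a.2, -0.38 to 0.19 for c3a.3, -1.02 to 0.65 for c6, -0.072 to 0.10 for c8a, -0.28 to 0.066 for cfp and -0.16 to 0.14 for c8g.

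All-gene calls for FBSA against the Control fell to 855 when the 2 groups were fitted alone, 1020 without FBSA 2, 1228 without Control 3 and 42FTS 2 together, and 1296 and 1309 and 1430 without Control 1, 2 and 3. Few counts lay behind c3a.2 and the cytokines, and c3a.2 also varied between pools, with 140 reads in Control 1 and 11 in Control 3. The part of depth in that spread was not tested. The few counts of the c6 entry are a small part of the authors' estimated counts for that gene (ratio 0.0611).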
